A study of Macaca fascicularis with 6 samples.

Results

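The genes described here were set apart by 1 property: in oocytes of the cynomolgus monkey (Macaca fascicularis) they stood at least 2-fold higher after maturation in culture than in both other kinds of oocyte that were sequenced. They were chosen by their CPM, a gene's count scaled to a fixed library total. The rule asked for at least 5 CPM in the lower of the 2 culture-matured libraries, and asked that this lower value be at least 2 times the highest of the other 4 libraries. It found 182 of the 28164 genes in the table (0.646%). A further 91 genes known only by a LOC number and 12 genes whose names begin with 1 of 13 other prefixes met the same values and were left out by name. Because these same levels chose the genes, their height in IVM MII oocytes is given below as a description, with no test, and only the comparison of the other 2 groups is tested.

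The study holds 3 groups of 2 libraries: IVM MII oocytes, which were brought in culture to metaphase of the second division of meiosis, IVO MII oocytes, which reached it in the animal, and GV oocytes, which are immature and still hold an intact germinal vesicle. All were wild type and untreated per the labels, and all had been stripped, that is, freed of the cells around them. Animal ages, how many oocytes or animals went into a library, and the culture conditions were not found in the sources used here. RNA was copied from its poly(A) tail and amplified as full-length cDNA by a Smart-seq method, so the amount of a messenger RNA and the state of its tail cannot be told apart in these values.

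As background, a fully grown mammalian oocyte makes little new RNA. It carries messengers that were stored during growth, and during maturation many of these lose their tails and decay while others gain longer tails and are translated. Maturation takes the oocyte out of its arrest in prophase, through breakdown of the germinal vesicle and exit of the first polar body, to a new arrest at metaphase. In culture this happens without the follicle, whose granulosa and cumulus cells normally signal to the oocyte through gap junctions and through secreted factors of the TGF-beta and BMP family.

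The libraries held 33875153 to 35515139 counts in IVM MII, 27707021 to 29354497 in IVO MII and 31421282 to 32777458 in GV. The oocyte markers (20 genes) had summed levels of 20822 and 20133 CPM in IVM MII, 9271 and 12745 CPM in IVO MII and 31184 and 36735 CPM in GV. Of the 20, 1 gene, SOHLH1, stayed under 1 CPM in every library. The scale matters for these genes. Across all 15815 genes tested, the median log2 fold change of IVM MII over IVO MII was 0.24 on library totals and 0.02 with TMM factors, which assume that most genes do not differ, and for IVM MII over GV it was 0.35 and 0.06. On TMM-scaled CPM the rule found 97 genes, all of them among the 182, and on RLE-scaled CPM it found 84. With IVO MII in the place of IVM MII the same rule found 77 genes on library totals and 127 on the TMM scale, and with GV in that place it found 687 and 832. IVM MII therefore had more such genes than IVO MII on library totals and fewer on the TMM scale. CPM values below are on library totals, as in the rule.

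That these genes are high only after culture holds as a matter of degree. The highest IVO MII or GV value lay under 1 CPM for 0 of the 182 genes, under 2 CPM for 3 and under 5 CPM for 55. ANTXR2 was the 1 member with a library at 0 counts, in IVO MII. The ratio of the lower IVM MII value to the highest other value had a median of 2.43 and a range of 2.00 to 16.6, and it reached 3 for 35 genes, 5 for 10 genes and 10 for 2 genes. The highest other value lay in IVO MII for 95 genes and in GV for 87. Over the 182 genes the median level was 30.4 CPM in IVM MII, 7.22 CPM in IVO MII and 6.68 CPM in GV, and 26 genes had at least 100 CPM in both IVM MII libraries. Just inside the ratio limit stood ATP8B1 at 2.001, DAPK1 at 2.002 and LHFPL3 at 2.003, and just outside it CYTH1 at 1.99, CHORDC1 at 1.99 and WDR37 at 1.99. Just inside the level limit were DAPK1 at 5.05 CPM, GADL1 at 5.07 CPM and MOAP1 at 5.11 CPM in the lower IVM MII library, and just outside it RAP1GAP2 at 4.87 CPM, C14H11orf1 at 4.84 CPM and N6AMT1 at 4.72 CPM.

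**Figure D1:**
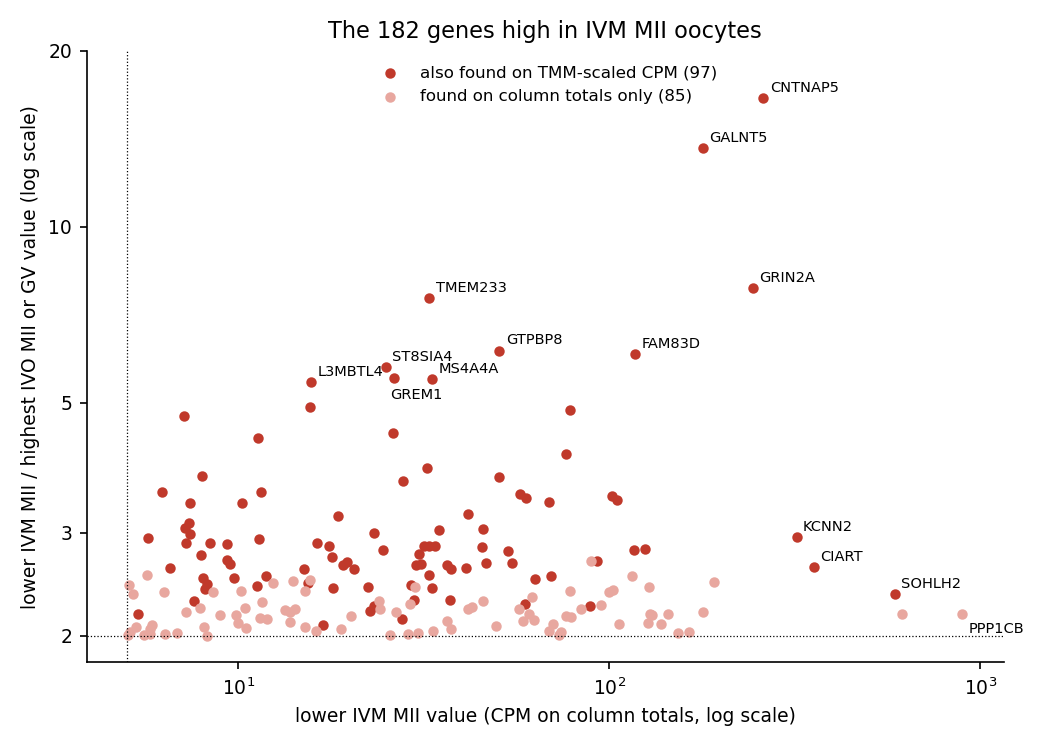
Each point is 1 of the 182 genes, placed by its lower IVM MII value (CPM on column totals, log scale) and by the ratio of that value to the highest of the 4 IVO MII and GV values (log scale). Dotted lines mark the limits of the rule, dark points are the 97 genes also found on TMM-scaled CPM, and most points lie close above the ratio limit of 2, with CNTNAP5 at 16.6 and GALNT5 at 13.6 far above it.

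CNTNAP5, a contactin-associated membrane protein of the neurexin family known from nerve cells (macFas5 chromosome 12, 6977152 to 7839387), had the largest ratio. It had 260.2 and 292 CPM in the IVM MII libraries, 15.7 and 13.8 CPM in the IVO MII libraries and 9.36 and 10.8 CPM in the GV libraries. Its mean was thus 18.8 times that of IVO MII and 27.4 times that of GV, with the 2 libraries of each group close together. CNTNAP2, its relative, also was somewhat higher in IVM MII, at 61.4 and 59.4 CPM, against 32.0 and 31.7 CPM in IVO MII and 32.1 and 29.2 CPM in GV. CNTNAP2 thus missed the factor of 2 in each comparison. It was picked, like the other relatives below, after the members' values were known.

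GALNT5 (chromosome 12, 46024017 to 46081391) encodes an enzyme of the Golgi apparatus that starts O-linked glycosylation by placing N-acetylgalactosamine on serine and threonine. It stood at 179 and 180.5 CPM in IVM MII, 11 and 13.1 CPM in IVO MII and 5.51 and 5.55 CPM in GV. Both IVM MII libraries lay more than 10 times above every other library. The most abundant relatives per kb of exon had another profile. GALNT11 averaged 55.2 CPM per kb in IVM MII, 58.5 in IVO MII and 20.8 in GV, and GALNT3 averaged 27.2, 35.0 and 8.92 CPM per kb in the same order, against 24.8, 1.67 and 0.763 CPM per kb for GALNT5. In IVM MII, GALNT5 was therefore about as abundant per length as GALNT3, while in IVO MII and GV it was far below it.

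GRIN2A (chromosome 20, 10061738 to 10492150) encodes a subunit of the NMDA receptor, a glutamate-gated ion channel. Its libraries held 267 and 244 CPM in IVM MII, 16.7 and 20.4 CPM in IVO MII and 31.0 and 26.5 CPM in GV. That the IVM MII values were clear of all others is set by the rule for every member. GRIN2B, another subunit, did not share this pattern, with 116 and 102 CPM in IVM MII, 92.9 and 107 CPM in IVO MII and 114 and 159 CPM in GV. GRIN1, the subunit that every NMDA receptor needs, had at most 0.102 CPM in any of the 6 libraries.

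The other 9 genes of the leading 12 belong to unlike roles. FAM83D, a protein of the mitotic spindle, had 156 and 117 CPM in IVM MII, 5.09 and 19.3 CPM in IVO MII and 8.18 and 16.7 CPM in GV, and its IVO MII and GV libraries were far apart within each group. CDK5RAP3, a partner of the UFMylation machinery of the endoplasmic reticulum, had 83.6 and 78.2, 11.2 and 8.82 and 11.7 and 16.1 CPM in the same order of groups. GTPBP8, a GTP-binding protein of mitochondria, had 53.2 and 50.5 CPM in IVM MII, 8.23 and 5.79 CPM in IVO MII and 4.49 and 4.03 CPM in GV. The small membrane protein TMEM233 had 32.7 and 41.4, 3.93 and 4.33 and 3.47 and 2.44 CPM, in that order. NUDT12, a peroxisomal enzyme that breaks down NADH and removes NAD caps from RNA, had 15.6 and 20.6, 3.18 and 2.76 and 2.80 and 1.80 CPM. In these last 4 genes, all IVO MII and GV libraries lay below the IVM MII libraries by a factor of at least 4.87. ST8SIA4, MS4A4A and L3MBTL4, which were lowest in IVO MII, and GREM1 are described further on.

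**Figure D2:**
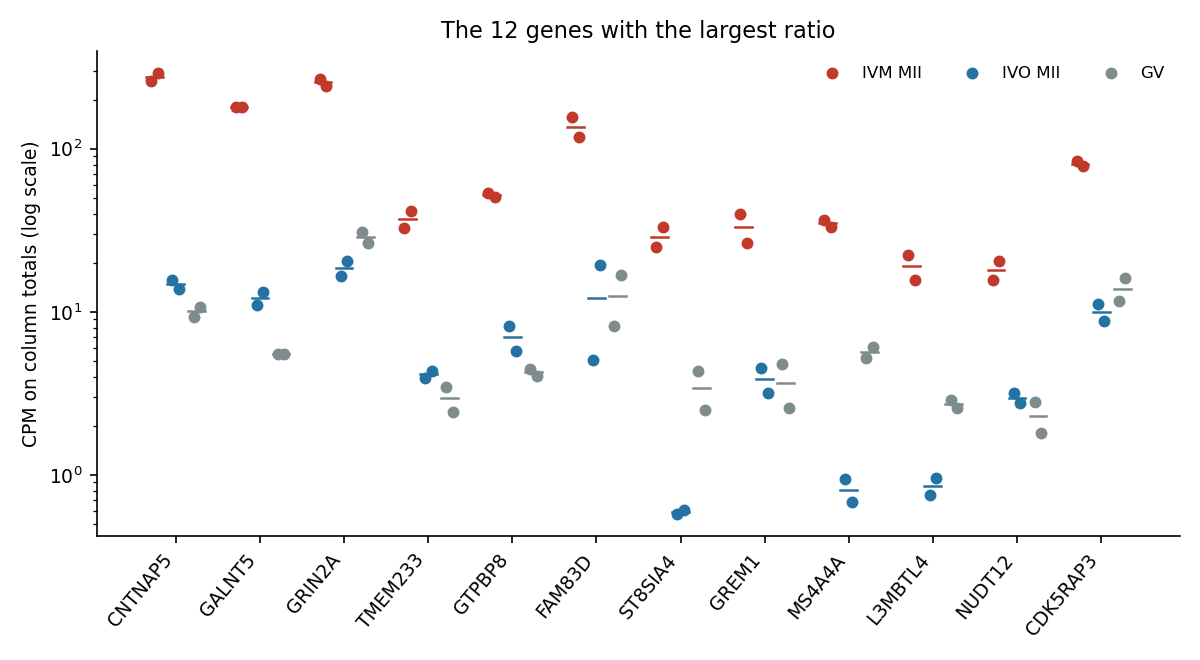
CPM on column totals (log scale) of the 12 genes with the largest ratio, in order of the ratio, with 1 point per library and a bar at the mean of the 2 libraries of a group. Both IVM MII points lie above all 4 other points for every gene, as the rule requires, while IVO MII lies below GV for ST8SIA4, MS4A4A and L3MBTL4 and above it for GALNT5.

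Per kb of exon, the most abundant members in IVM MII included SOHLH2 at 258 CPM per kb, PPP1CB at 214, CIART at 179, CCDC53 at 126 and KCNN2 at 104, and the median over the 182 genes was 7.01 CPM per kb. SOHLH2, a basic helix-loop-helix transcription factor of germ cells that in the mouse is needed for early follicle growth, stood at 661 and 588 CPM in IVM MII, 235 and 249 CPM in IVO MII and 184 and 153 CPM in GV. FIGLA, a factor of the same family in oocytes, was highest in GV, with 9.43 and 11.8 CPM in IVM MII, 3.39 and 7.12 CPM in IVO MII and 66.9 and 97.9 CPM in GV. PPP1CB, a catalytic subunit of protein phosphatase 1, had 895 and 1192 CPM in IVM MII, 411 and 287 CPM in IVO MII and 348 and 269.6 CPM in GV. Its relative PPP1CC was highest in IVO MII, with 386 and 339 CPM in IVM MII, 524 and 448 CPM in IVO MII and 226 and 154 CPM in GV. KCNN2, a calcium-activated potassium channel, had 319.7 and 388 CPM in IVM MII, 108 and 107 CPM in IVO MII and 93.7 and 101 CPM in GV. SOHLH2, CIART, CCDC53 and KCNN2 were also found on the TMM scale, whereas PPP1CB was not.

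**Figure D3:**
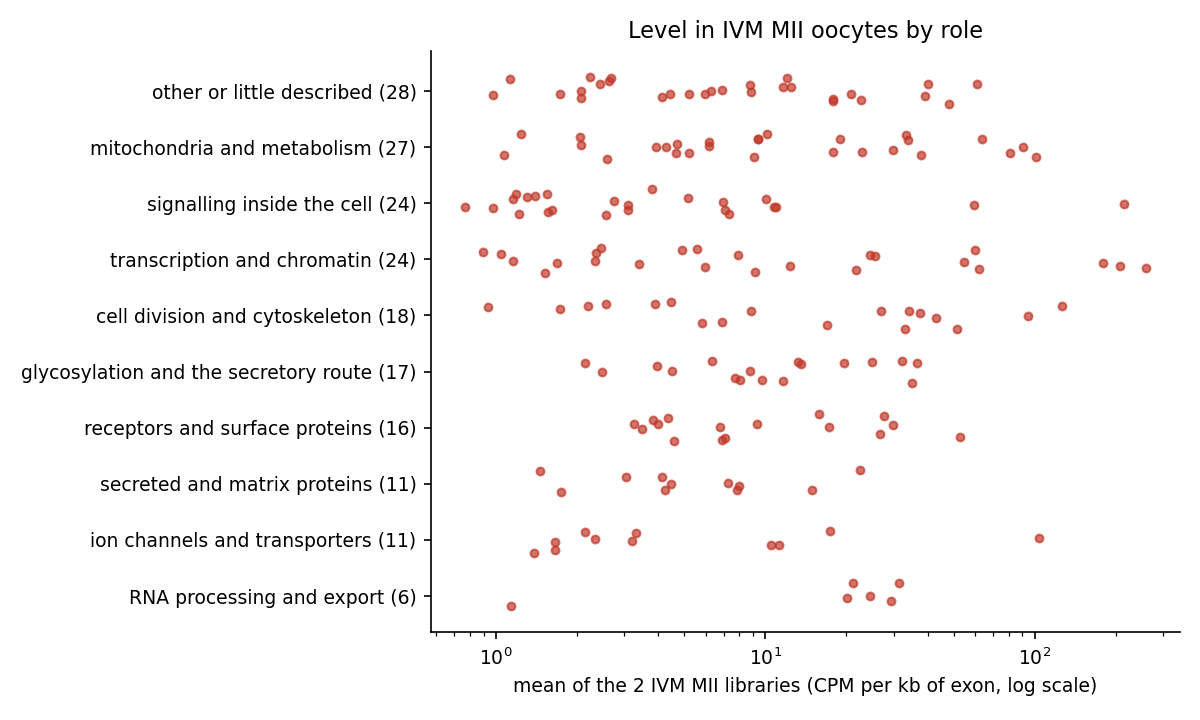
The mean level of each of the 182 genes in IVM MII oocytes (CPM per kb of exon, log scale), with genes in rows by their known role and the number of genes in parentheses. Each role spans at least a factor of 10 in level, and the highest points of all are SOHLH2 at 258 CPM per kb under transcription and PPP1CB at 214 CPM per kb under signalling.

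The 182 genes were sorted by known role, by hand and with the members known, so the sizes of the groups are a description. Secreted and matrix proteins made up 11 genes, of which 9 were also found on the TMM scale. ADAM19, a membrane-anchored protease, led them by CPM with 115 and 102 CPM in IVM MII, 22.8 and 29.4 CPM in IVO MII and 27.0 and 24.6 CPM in GV. OTOGL, a mucin-like matrix protein known from the inner ear, had 32.2 and 33.8, 8.30 and 5.35 and 5.92 and 3.75 CPM, and CLUL1, a clusterin-like protein, 34.8 and 48.8, 4.08 and 5.89 and 10.6 and 11.5 CPM, in the same order. GREM1 is a secreted antagonist of BMPs that cumulus cells make in response to the oocyte. Its libraries held 39.9 and 26.3 CPM in IVM MII, 4.51 and 3.20 CPM in IVO MII and 4.77 and 2.56 CPM in GV. PRG4, the lubricating proteoglycan of joints, had 7.97 and 7.11 CPM in IVM MII, 1.15 and 1.5 CPM in IVO MII and 0.477 and 0.183 CPM in GV, the lowest levels of those named here.

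GREM1 and RUNX2, a transcription factor with 9.77 and 7.41 CPM in IVM MII, 1.77 and 1.94 CPM in IVO MII and 1.46 and 2.20 CPM in GV, are both on the list of markers of cumulus and granulosa cells. Of the 26 genes of that list in the table, 18 stayed under 1 CPM in every library, and AMHR2, FOXL2, INHA, HSD17B1, PTX3, BTC and STAR had no count in any library. The summed level of the list was 554 and 446 CPM in IVM MII, 607 and 761 CPM in IVO MII and 210 and 186 CPM in GV, most of it from GATM, an enzyme of creatine synthesis, with 439.6 and 352 CPM in IVM MII, 567 and 700.3 CPM in IVO MII and 166 and 146 CPM in GV. TNFAIP6, which binds the matrix of expanded cumulus, had 28.8 and 33.4 CPM in IVM MII, 12.5 and 13.9 CPM in IVO MII and 22.9 and 17.5 CPM in GV. Without GATM the sums were 114 and 93.9 CPM in IVM MII, 39.5 and 60.3 CPM in IVO MII and 44.5 and 39.6 CPM in GV, and without GATM, GREM1 and RUNX2 they were 64.5 and 60.2 CPM, 33.2 and 55.2 CPM and 38.3 and 34.8 CPM in that order. The sum of this rest was thus also highest in IVM MII, but TNFAIP6 alone gave 28.8 and 33.4 CPM of it there. IVO MII replicate 2, at 55.2 CPM, came close to the IVM MII sums. The part of this rest in the levels of the 182 genes was not tested. Of the other 7 tested genes of the list, 1 was called higher and 1 lower in IVM MII than in IVO MII (14.3% and 10.3% of all genes). Against GV, 2 of the 7 were higher and 1 lower in IVM MII (25.6% and 24.7% of all genes). In IVO MII against GV, 2 were higher and 1 was lower (28.1% and 30.5%). In such bulk libraries fewer cells of a type and less RNA per cell cannot be told apart. The list for theca, stroma and endothelium held 0 members, and its sums were 349 and 308 CPM in IVM MII, 268 and 259 CPM in IVO MII and 420.4 and 437 CPM in GV. Of its 8 tested genes, 1 was called higher and 1 lower in IVM MII than in IVO MII. Against GV, 1 was higher and 2 lower in IVM MII, and 3 were higher and 2 lower in IVO MII. The shares of all genes are those just given.

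Among the 16 receptors and surface proteins, 10 were also found on the TMM scale. BMPR1B is a type I receptor for BMPs and growth differentiation factors. It had 46.8 and 41.1 CPM in IVM MII, 5.99 and 6.30 CPM in IVO MII and 13.7 and 15.8 CPM in GV, with IVO MII below GV without overlap. The close relative BMPR1A was similar in both kinds of MII oocyte, with 57.6 and 53.4 CPM in IVM MII, 51.6 and 52.3 CPM in IVO MII and 24.5 and 17.1 CPM in GV. BMPR2, a type II partner, had 49.7 and 41.8 CPM in IVM MII, 66.0 and 62.9 CPM in IVO MII and 18.4 and 14.9 CPM in GV, and so stood highest in IVO MII. Of the other 27 tested genes of the TGF-beta and BMP list, 4 were higher and 6 lower in IVM MII than in IVO MII, where 14.3% and 10.3% of all genes were called higher and lower. Against GV, 10 of the 27 were higher and 3 lower in IVM MII (25.6% and 24.7% of all genes), and 11 were higher and 2 lower in IVO MII (28.1% and 30.5%).

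ADRA1A, an alpha-1 adrenergic receptor, had 131 and 128 CPM in IVM MII, 52.7 and 40.2 CPM in IVO MII and 25.3 and 20.2 CPM in GV, with IVO MII above GV without overlap. ADIPOR1, a receptor for adiponectin, had 102 and 78.7, 20.2 and 29.3 and 34.1 and 36.5 CPM in the same order of groups. LHFPL3, a membrane protein with several spans, had 97.7 and 73.0 CPM in IVM MII, 16 and 13.6 CPM in IVO MII and 27.9 and 36.5 CPM in GV, and TMEFF1, a membrane protein with follistatin-like domains, 54.7 and 88.6, 11.8 and 8.86 and 20.5 and 12.7 CPM. PCDH15, a protocadherin of hair cells, was narrower in its range, with 84.1 and 99.9 CPM in IVM MII, 36.0 and 37.8 CPM in IVO MII and 34.5 and 29.8 CPM in GV. ULBP3, a ligand of the immune receptor NKG2D, had 33.0 and 23.2 CPM in IVM MII, 7.76 and 6.61 CPM in IVO MII and 2.99 and 1.56 CPM in GV. ADRA1A, ADIPOR1, LHFPL3 and PCDH15 were not found on the TMM scale, while TMEFF1 and ULBP3 were.

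MS4A4A (chromosome 14, 13923082 to 14044782), a membrane protein with 4 spans that is known from macrophages, had 36.8 and 33.3 CPM in IVM MII, 0.938 and 0.681 CPM in IVO MII and 5.22 and 6.07 CPM in GV. It is on the list of blood and immune markers, whose summed level was 45.3 and 40.5 CPM in IVM MII, 9.53 and 5.69 CPM in IVO MII and 18.4 and 19.1 CPM in GV. MS4A4A made up most of the IVM MII sums. CD3E, CD3G, CD79A, NKG7, HBB and ITGAM had no count in any library, and 16 of the 19 genes of the list in the table stayed under 1 CPM in every library. CSF1R, the receptor that macrophages need, had 6.53 and 4.66 CPM in IVM MII, 6.24 and 4.12 CPM in IVO MII and 12.5 and 11.9 CPM in GV. Without MS4A4A the sums of the list were 8.50 and 7.20 CPM in IVM MII, 8.59 and 5.01 CPM in IVO MII and 13.1 and 13.1 CPM in GV. The other 4 tested genes of the list, CSF1R among them, had a median log2 fold change of IVM MII over IVO MII of 0.83. None was called in that comparison (24.6% of all genes), and each of the other 3 stayed near or below 1 CPM. Against GV, 1 of the 4 was called higher and 1 lower in IVM MII (25.6% and 24.7% of all genes). In IVO MII against GV, 0 were higher and 1 was lower (28.1% and 30.5%).

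The ion channels and transporters counted 11 genes, 6 of them also found on the TMM scale. Beside GRIN2A and KCNN2 they included KCNJ15, an inward rectifier potassium channel, with 35.2 and 33.2 CPM in IVM MII, 10.2 and 13.8 CPM in IVO MII and 11.6 and 12.1 CPM in GV. CATSPERD, a subunit of the calcium channel of sperm, had 32.8 and 27.6 CPM in IVM MII, 10.1 and 12.9 CPM in IVO MII and 12.3 and 10.9 CPM in GV. SLC35G2, a protein of the nucleotide sugar transporter family, had 63.7 and 56.9, 14.3 and 19.7 and 24.6 and 25.6 CPM, and NIPA1, a magnesium transporter, 21.8 and 18.9, 8.08 and 9.20 and 7.42 and 6.71 CPM, in that order. The IVM MII libraries of these genes stood 2 to 3 times above the next library, closer to the limit of the rule than GRIN2A. SLC35G2 and NIPA1 were not found on the TMM scale.

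Glycosylation and the secretory route took 17 genes, of which 7 were also found on the TMM scale. UAP1, which makes UDP-N-acetylglucosamine, had 100.1 and 76.5 CPM in IVM MII, 19.9 and 22.3 CPM in IVO MII and 31.3 and 35.5 CPM in GV. RPN1, a subunit of the oligosaccharyltransferase that adds N-linked glycans, had 84.4 and 68.8, 17.3 and 24.8 and 29.2 and 33.8 CPM. FPGT, which makes GDP-fucose, had 115 and 116 CPM in IVM MII, 32.0 and 35.8 CPM in IVO MII and 45.5 and 35.8 CPM in GV. These genes, with GALNT5 and ST8SIA4, act at different steps, from sugar donors to the first and the last sugars of a chain. On the TMM scale GALNT5 and ST8SIA4 were also found, while UAP1, RPN1 and FPGT were not, nor were BLZF1 and STXBP6, described next. BLZF1, a golgin partner, had 99.6 and 107 CPM in IVM MII, 38.4 and 41.8 CPM in IVO MII and 41.9 and 29.6 CPM in GV, and STXBP6, a regulator of vesicle fusion, 127 and 128, 51.7 and 49.7 and 56.4 and 60.4 CPM. HSPA13, a microsome-bound relative of the HSP70 chaperones, had 38.7 and 33.9 CPM in IVM MII, 11.9 and 9.37 CPM in IVO MII and 8.24 and 4.73 CPM in GV. It was the only member on the list of heat shock and unfolded protein response genes, whose other 34 tested genes were called higher in IVM MII than in IVO MII in 7 cases and lower in 4 (14.3% and 10.3% of all genes). Against GV, 10 of the 34 were higher and 10 lower in IVM MII (25.6% and 24.7% of all genes), and 10 were higher and 12 lower in IVO MII (28.1% and 30.5%). HSPA5, the main HSP70 of the endoplasmic reticulum, had 98.3 and 92.2 CPM in IVM MII, 11.9 and 18.4 CPM in IVO MII and 59.0 and 86.1 CPM in GV, and so missed the rule through its GV level.

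Mitochondria and metabolism formed the largest named role, with 27 genes, 15 of them also found on the TMM scale. GLS2, the liver-type glutaminase, which turns glutamine into glutamate, had 76.4 and 91.7 CPM in IVM MII, 14.7 and 16.4 CPM in IVO MII and 9.90 and 18.7 CPM in GV. SULT2A1, a sulfotransferase of steroids and bile acids, had 130.1 and 105 CPM in IVM MII, 30.7 and 24.2 CPM in IVO MII and 11.3 and 7.08 CPM in GV. TSFM, the elongation factor Ts of mitochondrial translation, had 173 and 164, 57.6 and 80.8 and 58.1 and 73.6 CPM, in that order, and was not found on the TMM scale. GPAT3, which starts triglyceride synthesis in the endoplasmic reticulum, had 78.6 and 70.3 CPM in IVM MII, 12.6 and 33.6 CPM in IVO MII and 13.8 and 18.0 CPM in GV, with the 2 IVO MII libraries well apart. CCDC90B, a protein of the mitochondrial inner membrane, also varied within groups, at 42.5 and 26.1, 5.88 and 1.77 and 2.86 and 2.93 CPM. TMEM14B, a membrane protein, had 95.0 and 102 CPM in IVM MII, 19.7 and 30.7 CPM in IVO MII and 40.6 and 42.1 CPM in GV. TMEM242, an assembly factor of the ATP synthase, had 45.5 and 50.2 CPM in IVM MII, 4.01 and 9.95 CPM in IVO MII and 19.9 and 19.8 CPM in GV. Both had their lowest values in IVO MII. GPAT3, TMEM14B and TMEM242 were not found on the TMM scale.

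Within fatty acid oxidation, 3 acyl-CoA dehydrogenases were members. Of these, ACADL was also found on the TMM scale, while ACADM and ACADSB were not. ACADM, for medium chains, had 25.6 and 24.1 CPM in IVM MII, 10.9 and 9.78 CPM in IVO MII and 7.86 and 8.12 CPM in GV. ACADL, for long chains, had 9.91 and 8.24 CPM in IVM MII, 1.23 and 1.26 CPM in IVO MII and 2.26 and 3.36 CPM in GV, and ACADSB, for short branched chains, 14.2 and 15, 6.39 and 4.97 and 5.89 and 4.55 CPM. ACADM and ACADSB had like levels in IVO MII and GV, whereas ACADL was lowest in IVO MII. The family did not move as 1 block. ACAD11 had 50.1 and 41.4 CPM in IVM MII, 28.4 and 30.5 CPM in IVO MII and 16.5 and 19.3 CPM in GV, short of the factor of 2. ACAD8, which acts on isobutyryl-CoA in valine breakdown, was highest in IVO MII, with 5.80 and 4.10 CPM in IVM MII, 6.21 and 9.23 CPM in IVO MII and 1.78 and 2.72 CPM in GV. ACAD9, an assembly factor of respiratory complex I, was highest in GV, with 2.39 and 2.01 CPM in IVM MII, 1.34 and 2.15 CPM in IVO MII and 4.93 and 6.96 CPM in GV.

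**Figure D4:**
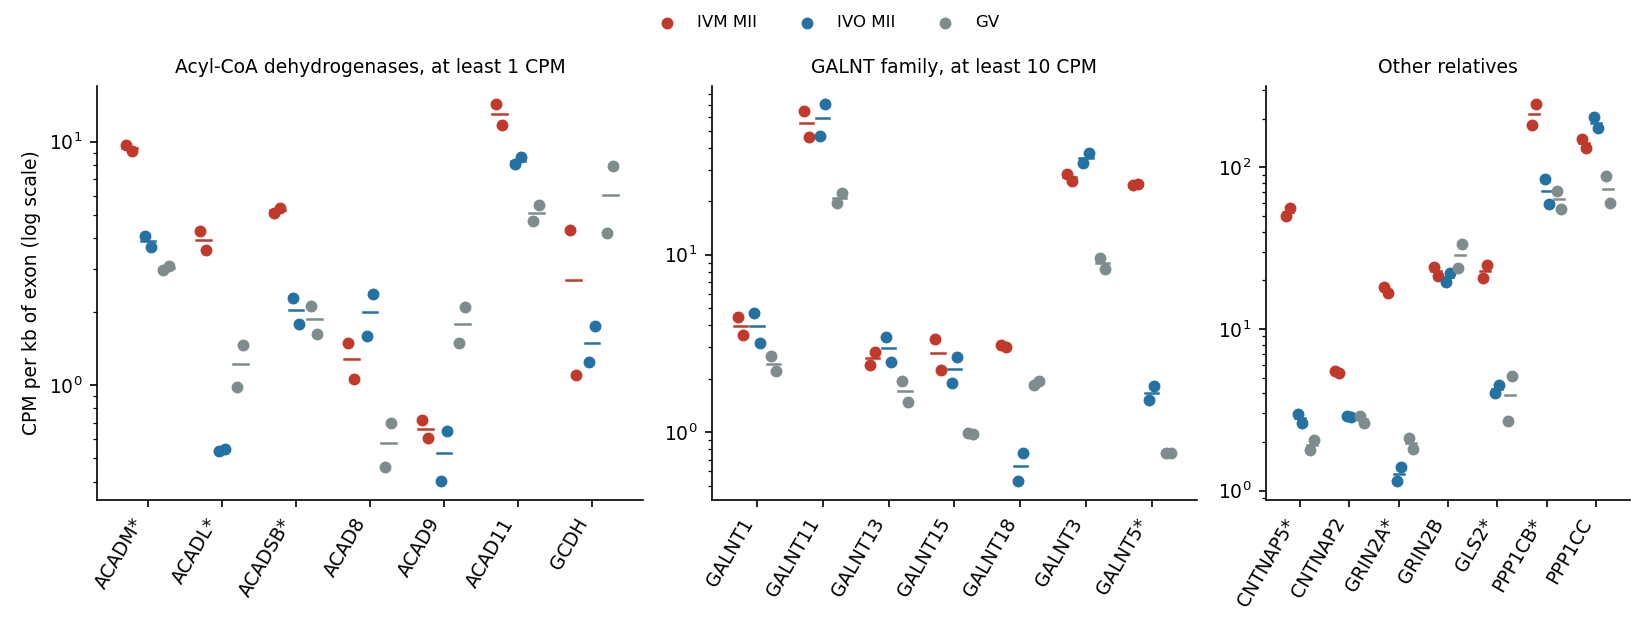
Members (marked by an asterisk) beside non-member relatives, in CPM per kb of exon (log scale), with 1 point per library and a bar at the mean of the 2 libraries of a group. GALNT5 averages 24.8 CPM per kb in IVM MII against 1.67 in IVO MII, while GALNT11 averages 55.2 and 58.5, and GRIN2B and PPP1CC do not share the high IVM MII level of GRIN2A and PPP1CB.

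GLRX2, a glutaredoxin of mitochondria and nucleus that reduces disulfides with glutathione, had 130.4 and 146 CPM in IVM MII, 23.2 and 38.9 CPM in IVO MII and 54.5 and 60.2 CPM in GV. GLRX2 was not found on the TMM scale, and it was the only member on the oxidative stress list. Of the other 22 tested genes of that list, 6 were called higher and 1 lower in IVM MII than in IVO MII (14.3% and 10.3% of all genes). Against GV, 8 were higher and 8 lower in IVM MII (25.6% and 24.7% of all genes), and 5 were higher and 11 lower in IVO MII (28.1% and 30.5%). MTERF4, which guides assembly of the mitochondrial ribosome, had 13.5 and 11.5 CPM in IVM MII, 0.469 and 0.579 CPM in IVO MII and 1.69 and 3.26 CPM in GV. LYRM7, a chaperone of the Rieske protein of complex III, had 7.32 and 5.79 CPM in IVM MII, 0.974 and 0.477 CPM in IVO MII and 2.55 and 2.87 CPM in GV. Both were lowest in IVO MII, and MTERF4 was also found on the TMM scale while LYRM7 was not. They belong to a list of genes for mitochondrial ribosome and respiratory chain assembly, which also holds subunits of respiratory complexes and of the ATP synthase. Of its other 32 tested genes, 3 were called higher in IVM MII than in IVO MII (14.3% of all genes). In the IVM MII to GV comparison 5 were higher and 20 lower (25.6% and 24.7% of all genes), and in the IVO MII to GV comparison 6 were higher and 20 lower (28.1% and 30.5%).

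Transcription and chromatin counted 24 genes, 10 of them also found on the TMM scale. Of those named here, CDK8, RPAP3, POLR2M and THAP6 were not. CDK8, the kinase of the Mediator complex, had 71.3 and 62.7 CPM in IVM MII, 25.8 and 29.4 CPM in IVO MII and 28.6 and 25.2 CPM in GV, the last 2 groups overlapping. CIART, a repressor of the circadian clock, had 374 and 356 CPM in IVM MII, 70.6 and 136 CPM in IVO MII and 75.5 and 99.3 CPM in GV. RPAP3, part of the R2TP complex that assembles RNA polymerases, had 179 and 218 CPM in IVM MII, 76.7 and 81.1 CPM in IVO MII and 81.3 and 69.9 CPM in GV. KIN, a nuclear DNA- and RNA-binding protein, had 116 and 119, 38.9 and 41.5 and 26.3 and 23.2 CPM, and POLR2M, a subunit of a form of RNA polymerase II, 114 and 106, 40.2 and 46.1 and 44.2 and 50.8 CPM. The zinc finger genes THAP2 and THAP6 both were members. THAP2 had 59.5 and 60.2 CPM in IVM MII, 10.9 and 13.3 CPM in IVO MII and 15.6 and 17.3 CPM in GV, and THAP6 had 14.1 and 15.1, 3.75 and 2.96 and 5.66 and 4.45 CPM. L3MBTL4, a chromatin reader with MBT domains, had 22.4 and 15.7 CPM in IVM MII, 0.758 and 0.954 CPM in IVO MII and 2.90 and 2.56 CPM in GV.

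RNA processing and export held 6 genes, 2 of them, SNRNP27 and MAGOHB, also found on the TMM scale. SNRNP27, a protein of the spliceosome, had 92.5 and 99.1 CPM in IVM MII, 25.0 and 28.6 CPM in IVO MII and 34.5 and 30.7 CPM in GV. PTBP2, a regulator of alternative splicing, had 80.4 and 78.3, 25.2 and 24.5 and 32.8 and 24.9 CPM in the same order, and NUPL2, a nucleoporin of the export route, 61.0 and 58.6, 14.2 and 14.4 and 27.6 and 25.1 CPM. MAGOHB, a core protein of the exon junction complex, had 21.0 and 17.6 CPM in IVM MII, 5.67 and 4.46 CPM in IVO MII and 6.17 and 6.01 CPM in GV. UTP23, a factor of small ribosomal subunit assembly, had 36.5 and 39.5 CPM in IVM MII, 17.3 and 11.2 CPM in IVO MII and 12.9 and 10.9 CPM in GV. The lowest of the 6 was ZCCHC11, a uridylyltransferase that marks messengers with short tails in mouse oocytes, with 5.66 and 7.73 CPM in IVM MII, 1.88 and 1.91 CPM in IVO MII and 1.81 and 2.23 CPM in GV. Except for NUPL2, the IVO MII and GV values of these genes lay close together or overlapped.

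Cell division and the cytoskeleton had 18 genes, of which 14 were also found on the TMM scale. Of those named here, PBK, NSL1 and DPYSL2 were not. PBK, a mitotic kinase, had 191 and 211 CPM in IVM MII, 77.3 and 63.6 CPM in IVO MII and 67.9 and 53.5 CPM in GV. NSL1, a subunit of the MIS12 complex that joins kinetochores to microtubules, had 108 and 103 CPM in IVM MII, 42.9 and 42.6 CPM in IVO MII and 38.8 and 26.9 CPM in GV. CCDC53, a subunit of the WASH complex that builds actin on endosomes, had 125 and 152 CPM in IVM MII, 27.1 and 44.3 CPM in IVO MII and 41.6 and 39.5 CPM in GV. MYZAP, a protein of cell junctions in heart, had 98.8 and 69.7, 23.6 and 27.6 and 17.7 and 22.1 CPM in that order. DPYSL2, a microtubule-binding protein known from axon growth, had 131 and 129 CPM in IVM MII, 14 and 13.1 CPM in IVO MII and 59.2 and 56.8 CPM in GV. DPYSL2 differed from the rest of those named in its role by its clear drop below GV in IVO MII.

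Signalling inside the cell held 24 genes, 12 of them also found on the TMM scale. Of those named, PPP1CB, GAB1, RIT2, DLGAP1 and RNF152 were not. Below PPP1CB came GAB1, a docking protein of receptor tyrosine kinases, with 153 and 166 CPM in IVM MII, 74.2 and 75.8 CPM in IVO MII and 50.3 and 39.2 CPM in GV. RIT2, a Ras-like GTPase known from neurons, had 144 and 156 CPM in IVM MII, 57.0 and 65.9 CPM in IVO MII and 41.4 and 39.1 CPM in GV. DLGAP1, a scaffold of synapses, had 76.5 and 60.7, 27.9 and 25.3 and 13.5 and 16.1 CPM, and PID1, an adaptor tied to insulin signalling, 45.4 and 37.3, 9.85 and 16.2 and 11.6 and 13.1 CPM. The ubiquitin ligases RNF152, RNF213 and RNF32 were members at unlike levels. RNF152, of the lysosome, had 37.4 and 37.6 CPM in IVM MII, 17.4 and 10.8 CPM in IVO MII and 18.2 and 17.9 CPM in GV, while RNF213 had 17.0 and 16.3, 4.48 and 5.66 and 4.74 and 2.84 CPM and RNF32 8.76 and 5.70, 1.77 and 1.67 and 1.94 and 1.40 CPM. The last 28 genes, 12 of them also found on the TMM scale, have other roles or are little described. Among them SMIM19 had 138 and 152 CPM in IVM MII, 23.7 and 26.9 CPM in IVO MII and 64.0 and 65.8 CPM in GV, and STPG2 100.3 and 88.8, 30.9 and 39.6 and 19.6 and 14.5 CPM. A pair of open reading frames without a named function was also marked by low IVO MII levels. C6H5orf58 had 52.3 and 50.2 CPM in IVM MII, 3.72 and 3.10 CPM in IVO MII and 10.3 and 13.4 CPM in GV, and C7H15orf65 had 31.2 and 29.9, 2.35 and 3.54 and 12.3 and 9.61 CPM in the same order. WDR7, a regulator of the proton pump of vesicles, had 68.1 and 62.9 CPM in IVM MII, 25.2 and 23.3 CPM in IVO MII and 19.9 and 13.5 CPM in GV. SMIM19 and C7H15orf65 were not found on the TMM scale.

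The lists for embryonic genome activation, immediate early genes, hypoxia, p53 targets, interferon response, sterol synthesis, WNT signalling and apoptosis held 0 of the 182 genes. Relative to genes of any pattern with a mean of at least 5 CPM in IVM MII (6423 genes), the members had a like median exon length (3863 against 3832 bases) and a median of 10 against 12 exon blocks. On macFas5, chromosome 18 held 11 of the 182 genes (6.04%), against 1.91% of the 6423, and chromosome 1 held 21 (11.5%, against 9.70%). The 11 were CNDP1, CLUL1, L3MBTL4, KATNAL2, NAPG, SERPINB5, WDR7, DLGAP1, RIT2, RNF152 and ATP8B1. Like all members, they were chosen by their values, and chromosome 18 is named with the counts of all chromosomes known. In 6 cases 2 members lay within 200 kb of each other. FPGT and LRRIQ3 begin on opposite strands 28 bases apart, GLRX2 and CDC73 on opposite strands 6378 bases apart, and MYZAP and POLR2M follow each other on 1 strand with a gap of 19755 bases. In 29 members some exon bases were shared with another gene, with a median of 2.38% of the member's exons and at most 17.0% (SMIM19 with SLC20A2), and in 8 of the 29 the other gene had at least 5 CPM in IVM MII, among them CCDC90B, PRG4, THAP2 and THAP6. The counting used no strand, so reads from such shared bases cannot be assigned by strand.

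The comparison of IVO MII with GV asks how these genes stand in maturation within the animal, and it is the 1 contrast that the rule did not use to set a direction. With edgeR's quasi-likelihood test and an adjusted p under 0.05 over all 15815 genes, 63 of the 182 genes were called (34.6%), against 58.5% of all genes tested. Among the 6423 non-members with a mean of at least 5 CPM in IVM MII and the same name rule, 70.2% were called. Of the 63 members, 22 were higher in IVO MII than in GV (12.1% of the 182, against 28.1% of all genes) and 41 were lower (22.5%, against 30.5%). The members' median log2 fold change was -0.08, beside -0.07 over all genes, and 119 members were not called. The IVM MII level of the members was enough by itself to pass the filter on low counts, whatever their other levels. The rule also holds both IVO MII and GV below that level, so these shares are not free of the rule. In 121 members (66.5%) the IVO MII and GV libraries did not overlap, against 80.5% of all genes tested. Called and over 2-fold lower were 27 members (14.8%, against 27.4% of all genes), and called and over 2-fold higher were 9 (4.95%, against 21.9%). On library totals the calls were 27 higher and 33 lower.

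The largest falls in IVO MII were of genes with unlike roles. ANTXR2, a receptor for collagen VI (chromosome 5, 54430399 to 54588113), had 0 and 0.852 CPM in IVO MII and 10.3 and 9.46 CPM in GV, with 33.4 and 23.1 CPM in IVM MII. Its log2 fold change of IVO MII over GV was -4.59 ± 0.68 (adjusted p = 0.000185), a value that rests on 25 counts over both IVO MII libraries, and it was -3.64 without IVO MII replicate 1. Without IVO MII replicate 2 the group stands at 0, so no fold is given. MS4A4A fell with a log2 fold change of -2.87 ± 0.31 (adjusted p = 2.18e-05), and ST8SIA4, which builds polysialic acid on cell-surface proteins, with -2.58 ± 0.39 (adjusted p = 0.00018). ST8SIA4 had 0.577 and 0.613 CPM in IVO MII and 4.33 and 2.5 CPM in GV, with 24.9 and 32.9 CPM in IVM MII. HSCB, a co-chaperone of iron-sulfur cluster assembly, had 1.12 and 0.511 CPM in IVO MII and 4.58 and 5.31 CPM in GV, with 12.3 and 11.4 CPM in IVM MII, and its log2 fold change was -2.67 ± 0.40 (adjusted p = 0.00016). CDADC1, a cytidine deaminase-like protein, had 4.44 and 4.84 CPM in IVO MII and 23.7 and 26.5 CPM in GV, with 61.8 and 64.5 CPM in IVM MII, and its log2 fold change was -2.52 ± 0.24 (adjusted p = 8.94e-06). The Polycomb cofactor AEBP2 fell, with a log2 fold change of -2.40 ± 0.42 (adjusted p = 0.00049), as did MTERF4 with -2.32 ± 0.42 (adjusted p = 0.000606) and PSD2, an activator of the GTPase ARF6, with -2.31 ± 0.41 (adjusted p = 0.000506). For these 8 genes GV lay above IVO MII in every library, with IVM MII highest by the rule. HSCB, CDADC1, AEBP2 and PSD2 were not found on the TMM scale.

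PRG4 rose in IVO MII over GV with a log2 fold change of 1.93 ± 0.47 (adjusted p = 0.00425), but its call was lost without GV replicate 2 (1.42, adjusted p = 0.0526). CKAP4, a membrane protein of the endoplasmic reticulum, had 10.5 and 9.88 CPM in IVO MII and 3.02 and 3.17 CPM in GV, with 24.0 and 28.0 CPM in IVM MII, and rose by 1.64 ± 0.28 (adjusted p = 0.000364). ULBP3 rose by 1.59 ± 0.33 (adjusted p = 0.00142) and SULT2A1 by 1.52 ± 0.27 (adjusted p = 0.000489). FAM24B, a little-described protein, rose by 1.40 ± 0.30 (adjusted p = 0.00195), with 4.94 and 6.51 CPM in IVO MII and 1.78 and 2.32 CPM in GV. GALNT5 rose by 1.05 ± 0.22 (adjusted p = 0.00178). The sperm acrosome gene SPACA5 rose by 1.05 ± 0.35 (adjusted p = 0.0223), and its call was lost without GV replicate 1, GV replicate 2 or IVO MII replicate 1, with adjusted p of 0.0992, 0.0776 and 0.115. In each of these genes IVO MII lay above GV without overlap, with IVM MII above both by the rule. CKAP4, FAM24B and SPACA5 were not found on the TMM scale.

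Of the genes at the head of the ratio, CNTNAP5 was not called in IVO MII against GV, with a log2 fold change of 0.47 ± 0.24 (adjusted p = 0.107). GRIN2A was lower in IVO MII, at -0.71 ± 0.21 (adjusted p = 0.0134), but not called without GV replicate 1 or IVO MII replicate 1 (adjusted p = 0.0838 and 0.0923). FAM83D stood at -0.14 ± 0.48 (adjusted p = 0.825) and GREM1 at 0.01 ± 0.34 (adjusted p = 0.981), and neither was called. BMPR1B fell, with a log2 fold change of -1.34 ± 0.24 (adjusted p = 0.000504). DPYSL2 fell too, at -2.17 ± 0.22 (adjusted p = 1.37e-05), and so did L3MBTL4, at -1.74 ± 0.32 (adjusted p = 0.000654). TMEM242 fell as well, at -1.60 ± 0.34 (adjusted p = 0.00177), as did C6H5orf58, at -1.87 ± 0.27 (adjusted p = 0.000127), and C7H15orf65, at -1.98 ± 0.28 (adjusted p = 0.00012). PNLIP, pancreatic lipase, was at -1.57 ± 0.41 (adjusted p = 0.00634), and at -2.38 without IVO MII replicate 2. ADIPOR1 was at -0.60 ± 0.23 (adjusted p = 0.0403), and at -0.39 without IVO MII replicate 1 (adjusted p = 0.273). It was also not called without either GV or either IVM MII library, on library totals, or in the 4 compared libraries alone (adjusted p = 0.0518 to 0.167).

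The calls by role are to be read beside those of all genes tested, of which 28.1% were higher and 30.5% lower in IVO MII than in GV. Mitochondria and metabolism had 2 genes called higher and 9 called lower, out of 27. Receptors and surface proteins had 3 higher and 5 lower of 16, transcription and chromatin 3 higher and 5 lower of 24, and glycosylation and the secretory route 2 higher and 4 lower of 17. Signalling inside the cell had 4 higher and 3 lower of 24, cell division and cytoskeleton 3 higher and 1 lower of 18, and secreted and matrix proteins 1 higher and 3 lower of 11. Ion channels and transporters had 2 lower of 11, RNA processing and export 1 lower of 6, and the genes of other or little-described role 4 higher and 8 lower of 28. The share called lay below the 58.5% of all genes in every role, but these shares, too, are not free of the rule. The p-values rest on a spread estimated partly from other genes and from all 6 libraries, among them the IVM MII libraries that chose the genes. That spread may be technical, since nothing says that replicates came from separate animals. With the 4 compared libraries alone the members called were 19 higher and 36 lower.

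**Figure D5:**
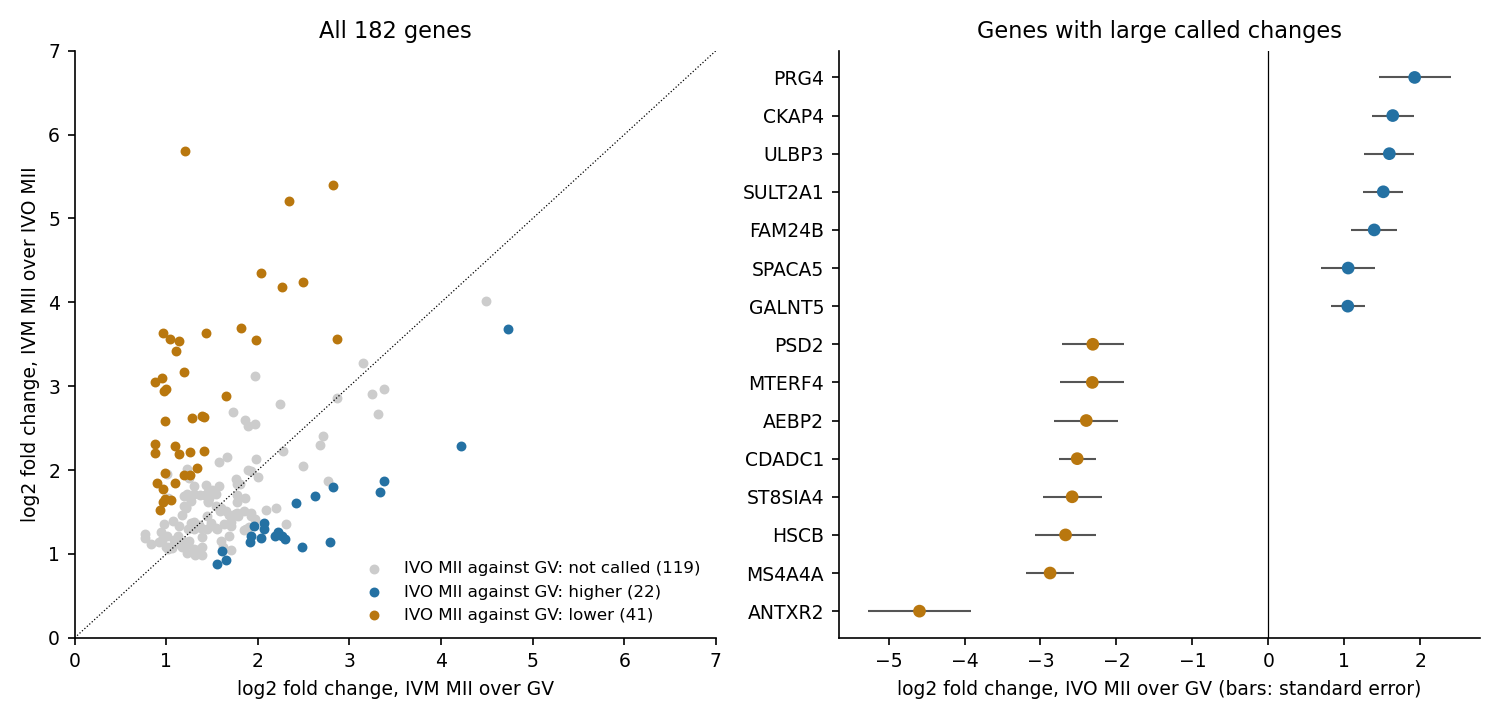
Left, the log2 fold change of IVM MII over IVO MII against that of IVM MII over GV for the 182 genes, coloured by the call of IVO MII against GV, with a dotted line where both are equal. Right, log2 fold change of IVO MII over GV with approximate standard error. Shown are the called genes with large changes that the text names, from 1.93 for PRG4 to -4.59 for ANTXR2.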

How the data were processed

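The values are raw counts of fragments over exons for 6 libraries, made by the authors, per the file headers, with featureCounts 2.0.1 in its unstranded default on macFas5 RefSeq genes. The file headers also give the exon length per gene (other than counts, in bases), used for values per kb. The submitters' processing notes list fastp, FastQC, Bowtie2 and SAMtools. Bowtie2 does not split reads over introns, and reads over 2 genes are not counted by default, so near-identical copies and overlapping genes are uncertain.

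From the deposited counts, CPM was computed on column totals. edgeR 4.0.16 (R 4.3.3) fitted all 6 libraries with TMM factors (0.903 to 1.22), filterByExpr (15815 genes kept) and a robust quasi-likelihood model with group as term. Tests were two-sided and adjusted by Benjamini and Hochberg at 0.05. Errors after ± are approximate standard errors, the absolute log2 fold change divided by the square root of the F statistic of its quasi-likelihood test. The procedure was tested on simulated data. The BCV was 0.232, and a floor of 3 counts per library is 0.0845 to 0.108 CPM, for counting error only.

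Alternatives were DESeq2 1.42.0, RLE factors, library totals, other filters, a replicate block, the 4 compared libraries alone, a non-robust fit and each library left out. The members, lists and alternatives were chosen with earlier results of these data known. Genes were named by largest ratio (12), level (12), IVO MII to GV change (8 per direction), list membership, nearness to the limits, and up to 6 per role, and some genes are not reported here. The labels tie no replicates together by number. The deviations of IVO MII and GV replicates of 1 number correlated at 0.178, those of IVM MII and IVO MII at -0.114 and those of IVM MII and GV at -0.144. Figures were drawn with matplotlib 3.10.9.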

Additional observations from a re-analysis of the deposited data

How the results depend on the processing

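The number of genes found by the rule depended on the scale. It was 97 on TMM-scaled CPM, 84 on RLE-scaled CPM and 35 with a ratio of at least 3, and 140 with a minimum of 10 CPM. Leaving out 1 library gave 208 to 376 genes, with 376 without IVM MII replicate 2, and all these sets hold the 182 by construction. For IVO MII against GV, members called higher were 9 with a filter of 10 CPM in 2 libraries, 14 to 21 with 1 library left out (14 without GV replicate 1), and 13 among the members also found on the TMM scale, an alternative chosen after seeing the data. Members called lower were 54, 30 to 41, and 17 in the same 3 settings. Library totals gave 27 higher and 33 lower, RLE factors 23 and 39, DESeq2 24 and 38, no filter 21 and 40, and the 4 compared libraries alone 19 and 36. With the replicate number as a block the calls were 21 higher and 38 lower, although the numbers share nothing in the labels, and only the IVO MII and GV replicates correlated above 0.1. Of 43 called members that the naming rule took up, 28 kept their call in every alternative run and 15 lost it in at least 1, and over 596 alternative values 0 changed sign. With 2 libraries per group and 3 residual degrees of freedom, small changes could not be resolved, and a lone library left in a group was assumed to vary like the others.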
